A study of Mus musculus with 8 samples.

Results

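Translation factors are the proteins that, with the ribosome, start, extend and end each protein chain. The genes examined were all those measured whose symbols begin with Eif1 to Eif6 or with Eef1 or Eef2, together with Etf1, Gspt1, Pabpc1, Pabpc4 and Abce1. This rule uses names and no measured value, and it gave 69 genes of the 24011 named genes on the arrays. Of these 42 are initiation factors in the wide sense, 9 act in elongation, 6 modify elongation factors, 5 act in termination, recycling or poly(A) binding and 7 restrain initiation (the 4E-binding proteins and the eIF2 kinases). Among the 42 are Eif1-ps3, a pseudogene, and Eif2c5, a non-coding RNA gene of the Argonaute family that shares the old prefix. A further 9 protein-coding genes that the rule names were not analysed here.

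RNA was measured on 1-colour Affymetrix arrays in 2 cell populations sorted from the bone marrow of adult C57Bl6 mice, with 4 arrays each. Lin+ cells carry surface markers of mature blood lineages. The HSC-enriched cells, in which haematopoietic stem cells are concentrated, are labelled LSKCD105+CD48neg, where LSK stands for lineage-negative, Sca-1-positive and Kit-positive. The series' design text names CD150 in place of CD105. No allele, treatment or exact age is given, and the labels do not say whether replicates are separate animals or pools. The p-values below therefore rest on the spread among the arrays alone, and that spread may be technical.

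Translation starts when eIF2 carries the initiator tRNA to the small ribosomal subunit and eIF4F brings the subunit to the capped end of the mRNA, with eIF3 as the scaffold between them. Cells slow initiation mainly by phosphorylating eIF2, through 4 kinases that sense different stresses, or by freeing 4E-binding proteins, which mTORC1 otherwise keeps inactive. Haematopoietic stem cells are known for a low rate of protein synthesis compared with most of their progeny, and for needing 4E-binding proteins to keep it low.

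Known markers of the sorted populations were compared first. All 8 measured stem cell markers were higher in HSC-enriched cells, with mean levels of 8.81 to 8.98 on HSC-enriched against 5.31 to 5.48 on Lin+ arrays (log2). Markers of B cells (7 of 7), erythroid cells (6 of 6), monocytes (6 of 6) and T and NK cells (5 of 5) were lower, as were 11 of 12 neutrophil markers. The HSC-enriched arrays were unequal in the neutrophil markers, with means of 7.02 and 6.99 on replicates 1 and 2. On replicates 3 and 4 they were at 9.54 and 9.41, against 11.61 to 11.87 on Lin+ arrays. The B cell markers averaged 6.56 on HSC-enriched replicate 3 against 4.84 to 5.09 on the other 3 HSC-enriched arrays. Results are therefore also given without HSC-enriched replicates 3 and 4 where this changes a call. In sorted bulk samples a smaller share of a cell type and less RNA per cell cannot be told apart.

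Translation factor transcripts were more often higher than lower in HSC-enriched cells. Of the 69 genes 29 rose, where 15.5% of all genes tested rose, and 2 fell, where 12.4% of all genes fell (limma, Benjamini-Hochberg adjusted p under 0.05 over all genes). The other 38 did not pass, 24 of them with a positive and 14 with a negative difference. The increases were small, from 0.36 (Eif4e) to 1.0 (Eif2ak4) on the log2 scale, and 15 of the 29 reached 1.5-fold, where 11.1% of all genes rose by that much. Both decreases, of the kinase genes Eif2ak3 and Eif2ak1, exceeded 1.5-fold, where 9.79% of all genes fell by that much. The median difference over the 69 genes was 0.35, against 0.02 over all genes.

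All 4 HSC-enriched arrays lay above all 4 Lin+ arrays for 31 of the 69 genes, where 15.9% of all genes did, and below them for 3, where 13% did. Each of the 31 genes that passed was separated in this way. Most members are well expressed, which bears on these shares. Among the 12510 genes that exceeded the overall median value on 4 or more arrays 25.8% rose and 20.3% fell, and of the 59 members among them 28 rose and 2 fell. Without HSC-enriched replicates 3 and 4, 24 of the 69 genes rose, 22 of them among the 29, and 3 fell.

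**Figure D1:**
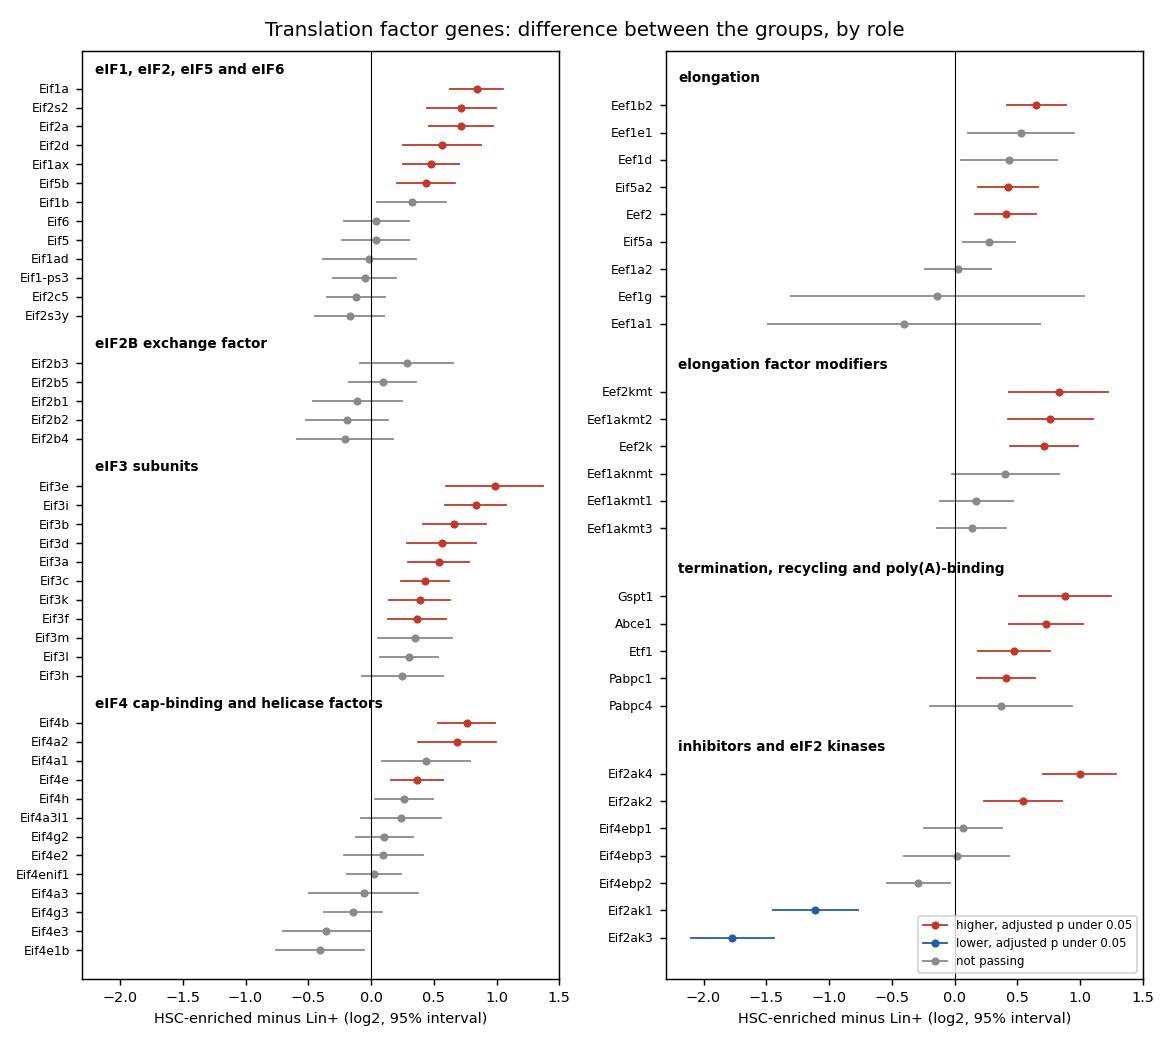
Difference between HSC-enriched and Lin+ means (log2) for each of the 69 genes, grouped by role; points are fitted differences, lines their 95% intervals from limma, and colours mark genes higher or lower at an adjusted p under 0.05. The eIF3 subunits lie to the right of 0 (0.25 to 0.98), whereas the eIF2 kinases spread from -1.77 to 1.0.

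The restraining genes split, and hold both decreases. Of the 7, the eIF2 kinase genes Eif2ak3 and Eif2ak1 fell, Eif2ak4 and Eif2ak2 rose, and the 3 genes of the 4E-binding proteins did not pass. The shares that rose and fell were 28.6% each, near the 25.8% and 20.3% of the genes over the median. Eif2ak3 (Entrez gene 13666) encodes PERK, the kinase that senses unfolded protein in the endoplasmic reticulum. It stood at 7.40, 7.56, 7.61 and 7.84 on Lin+ replicates 1 to 4 and at 6.15, 5.86, 5.82 and 5.50 on HSC-enriched replicates 1 to 4 (log2). Every HSC-enriched array was thus more than 1 unit under every Lin+ array, a 3.41-fold lower mean (difference -1.77 ± 0.15 SE, adjusted p = 1.1e-05, limma).

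Eif2ak1 (15467) encodes HRI, the haem-regulated kinase that in red cell precursors matches globin synthesis to the haem supply. Its Lin+ levels were 8.05, 8.59, 8.45 and 8.53, and its HSC-enriched levels 7.31, 7.58, 7.22 and 7.08. The groups did not overlap and the mean was 2.16-fold lower (difference -1.11 ± 0.15 SE, adjusted p = 0.00029, limma). The erythroid markers fell with it, from means of 8.58 to 9.38 on Lin+ arrays to 4.75 to 5.72 on HSC-enriched arrays, and their part in the result was not tested.

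In the other direction, Eif2ak4 (27103) encodes GCN2, the kinase that senses uncharged tRNA when amino acids run short. It stood at 6.51, 6.40, 6.17 and 6.70 on Lin+ arrays and at 7.42, 7.47, 7.61 and 7.28 on HSC-enriched arrays. All HSC-enriched arrays were above all Lin+ arrays, with a 2.0-fold higher mean (difference 1.0 ± 0.13 SE, adjusted p = 0.00022, limma). Eif2ak2 (19106), the gene of PKR, the interferon-induced kinase activated by double-stranded RNA, was at 7.46, 7.73, 7.37 and 7.84 in Lin+ and at 8.26, 8.08, 8.30 and 7.93 in HSC-enriched cells. Its arrays were separate by a narrow margin, with a rise of 0.55 ± 0.14 SE (adjusted p = 0.013, limma).

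The RefSeq promoters of these 4 kinase genes (GRCm38.p6) are shown because their transcripts went in opposite directions. Each is the 250 bases before the start, 5′ to 3′ on the gene's strand. Capitals mark matches on either strand to GATAA, the core of the site of GATA factors, or to CCAAT, the box bound by NF-Y.
Eif2ak3, chr6:70844265-70844514, plus strand: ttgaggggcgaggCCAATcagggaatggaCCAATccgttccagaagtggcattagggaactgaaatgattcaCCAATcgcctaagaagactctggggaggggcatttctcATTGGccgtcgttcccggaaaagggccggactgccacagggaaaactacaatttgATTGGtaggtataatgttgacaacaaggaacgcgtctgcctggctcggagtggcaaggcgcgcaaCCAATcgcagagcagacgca
Eif2ak1, chr5:143817542-143817791, plus strand: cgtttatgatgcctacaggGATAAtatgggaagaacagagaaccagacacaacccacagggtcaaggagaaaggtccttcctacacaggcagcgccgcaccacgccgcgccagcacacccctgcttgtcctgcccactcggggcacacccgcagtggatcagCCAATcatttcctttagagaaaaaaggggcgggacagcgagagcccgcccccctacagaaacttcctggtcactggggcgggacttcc
Eif2ak4, chr2:118388367-118388616, plus strand: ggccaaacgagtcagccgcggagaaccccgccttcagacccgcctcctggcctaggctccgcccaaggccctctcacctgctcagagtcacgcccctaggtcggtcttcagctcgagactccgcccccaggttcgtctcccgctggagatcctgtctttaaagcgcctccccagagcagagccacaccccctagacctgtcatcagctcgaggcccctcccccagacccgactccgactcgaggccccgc
Eif2ak2, chr17:78882573-78882822, minus strand: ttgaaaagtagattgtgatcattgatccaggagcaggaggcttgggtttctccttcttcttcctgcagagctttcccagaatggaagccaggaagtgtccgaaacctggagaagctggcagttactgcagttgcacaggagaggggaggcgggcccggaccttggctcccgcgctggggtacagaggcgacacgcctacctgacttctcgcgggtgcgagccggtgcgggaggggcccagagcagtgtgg

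The Eif2ak3 promoter holds 6 CCAAT matches, between 237 and 20 bases before the start. That of Eif2ak1 holds 1, at 88 bases, and 1 GATAA match at 231 bases. Neither motif is present in the windows shown for Eif2ak4, the first of its 2 listed promoters, and Eif2ak2. CCAAT also occurs in promoters of members that rose (Abce1, Eif3f, Eif3k, Eif4e and Eif5a2), as does GATAA (Eef2k and Eif3c). The remaining members with a match, other than Eif2ak3 and Eif2ak1, did not pass. At least 1 CCAAT occurs in the promoters of 37.5% of the 27025 genes listed and at least 1 GATAA in those of 25.5%. A match describes the letters only, and a link between these motifs and the direction was not tested. The ER stress element, which contains a CCAAT box, was not found in the 51 member promoters listed and occurs in 0.13% of all.

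The genes of the 4E-binding proteins, which block eIF4E when mTORC1 is inactive, did not pass. Eif4ebp2 came nearest, at 10.15, 9.99, 10.42 and 10.28 on Lin+ and 9.97, 9.85, 9.95 and 9.91 on HSC-enriched arrays. All HSC-enriched values were under all Lin+ values, but by little (difference -0.29, 95% interval -0.54 to -0.04, adjusted p = 0.086, limma). Without Lin+ replicate 2 the difference was -0.36 (adjusted p = 0.041).

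Eif4ebp1 was at 8.54, 8.46, 8.98 and 8.37 on Lin+ and at 8.69, 8.78, 8.53 and 8.63 on HSC-enriched arrays. These overlapped, with a difference of 0.07 (95% interval -0.24 to 0.38), so that a change of more than about 0.4 in either direction lies outside the interval. Eif4ebp3, at 6.76, 6.49, 7.29 and 6.40 in Lin+ and 6.61, 6.64, 6.77 and 6.99 in HSC-enriched cells, overlapped too (0.02, 95% interval -0.40 to 0.44). The arrays measure transcripts and not the phosphorylation that controls these proteins.

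**Figure D2:**
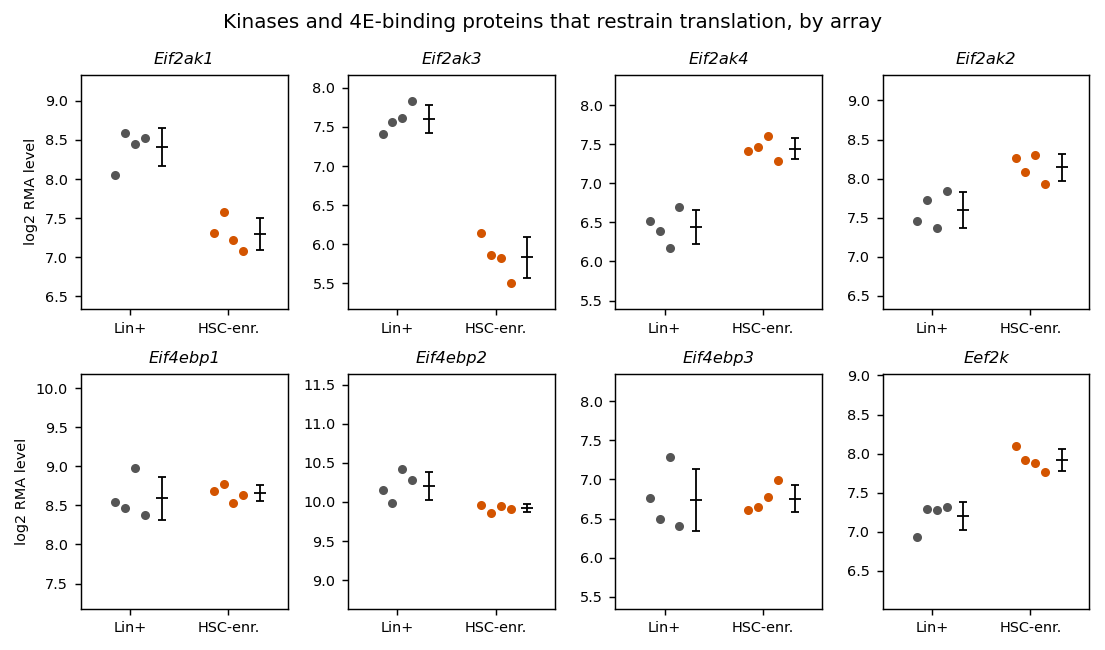
Log2 RMA level on each array for the 4 eIF2 kinase genes, the 3 genes of 4E-binding proteins and Eef2k; dots are arrays in replicate order, bars the mean and SD of 4 arrays, and every panel spans 3 log2 units. Eif2ak3 and Eif2ak1 are lower and Eif2ak4, Eif2ak2 and Eef2k higher in HSC-enriched cells, without overlap of arrays.

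Most subunits of eIF3, the scaffold of the initiation complex, rose. Of the 11 measured, 8 rose, where 15.5% of all genes and 25.8% of the genes over the median did, and 0 fell (limma; 10 and 0 at an unadjusted p under 0.05). All 11 differences were positive, with a median of 0.43. Eif3e, a subunit of the outer part of the complex, had the largest rise among them. Its levels were 8.55, 8.91, 8.47 and 8.74 on Lin+ arrays and 9.26, 10.06, 9.75 and 9.52 on HSC-enriched arrays (difference 0.98 ± 0.17 SE, a 1.98-fold higher mean, adjusted p = 0.0016, limma). The HSC-enriched arrays spread over 0.80 but all lay above the Lin+ arrays.

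Eif3i, which binds the core subunit Eif3b, was at 10.10, 10.18, 10.09 and 9.83 in Lin+ and at 10.95, 10.96, 10.87 and 10.75 in HSC-enriched cells, 1.78-fold higher. Eif3b itself was at 8.39, 8.49, 8.35 and 8.63 against 9.28, 9.17, 9.13 and 8.93, 1.58-fold higher. Both were separated by array. The remaining increases were those of Eif3d (0.56), which can bind the cap of certain mRNAs, Eif3a (0.54), the largest subunit, Eif3c (0.43), Eif3k (0.39) and Eif3f (0.37). Eif3c varied little between arrays, at 10.05 to 10.08 on Lin+ and 10.48 to 10.51 on HSC-enriched arrays.

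The smallest increases depended on single arrays. Eif3f missed the threshold once Lin+ replicate 3 (0.35, adjusted p = 0.057), Lin+ replicate 4 (0.32, 0.063), HSC-enriched replicate 2 (0.33, 0.067) or the pair of HSC-enriched replicates 3 and 4 (0.43, 0.055) was left out. Eif3k missed it once Lin+ replicate 4 (0.32, adjusted p = 0.062), HSC-enriched replicate 1 (0.38, 0.053) or HSC-enriched replicate 2 (0.34, 0.068) was left out. The same genes had separate groups of arrays. Eif3h, a subunit that did not pass, was at 10.80, 10.82, 10.55 and 10.72 in Lin+ and at 11.04, 11.28, 10.61 and 10.95 in HSC-enriched cells. HSC-enriched replicate 3 lay within the Lin+ range (difference 0.25, adjusted p = 0.26, limma). Eif3m (0.35) and Eif3l (0.30) missed the threshold too, at adjusted p = 0.083 and 0.053. Eif3m passed once HSC-enriched replicate 4 alone (0.46, adjusted p = 0.015) or with replicate 3 (0.47, 0.042) was left out, and Eif3l once HSC-enriched replicate 3 (0.35, adjusted p = 0.047) or Lin+ replicate 2 (0.36, 0.036) was.

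**Figure D3:**
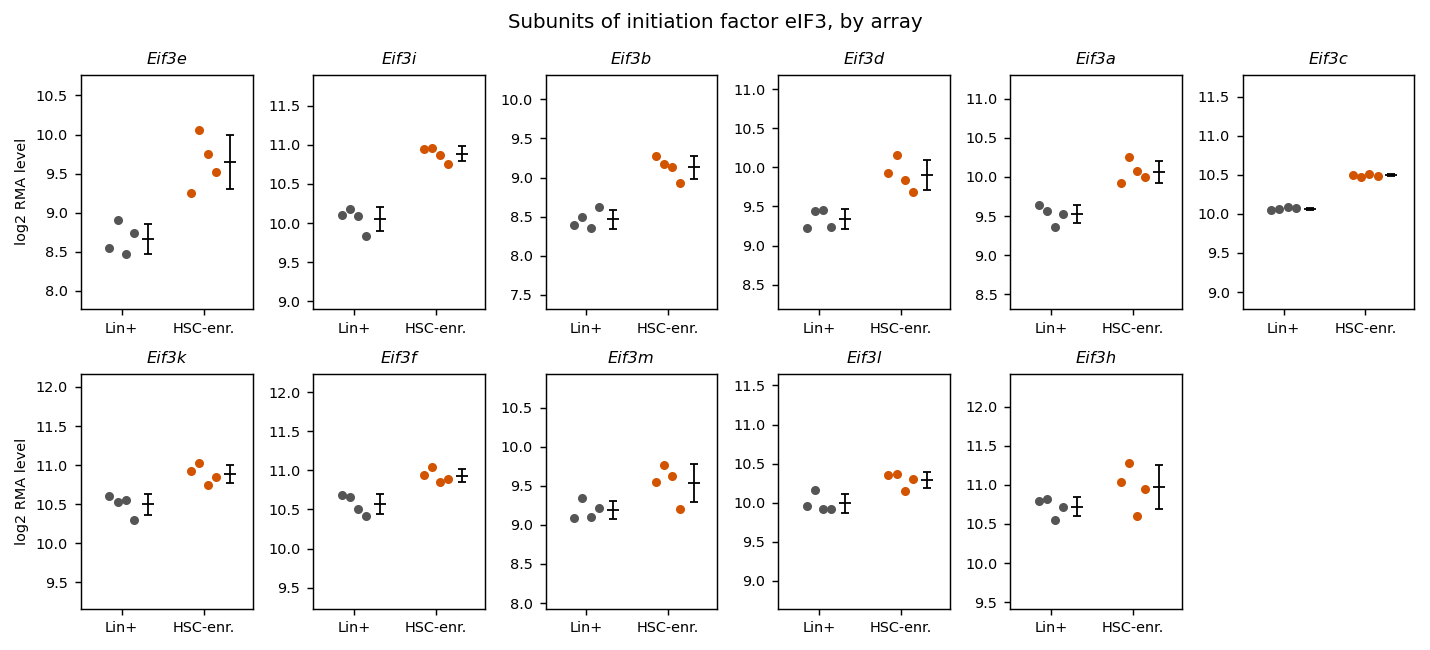
Log2 RMA level of the 11 measured eIF3 subunits on each array, ordered by difference; dots are arrays, bars the mean and SD of 4 arrays, and every panel spans 3 log2 units. The 8 subunits from Eif3e to Eif3f have all HSC-enriched arrays above all Lin+ arrays, and Eif3m, Eif3l and Eif3h do not.

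The group of eIF1, eIF2, eIF5 and eIF6 genes, among them factors that select the start codon or load initiator tRNA, rose in part. The group also holds the pseudogene Eif1-ps3 and the Argonaute gene Eif2c5. Of the 13 genes of this group 6 rose and 0 fell (limma), with a median of 0.32. The share that rose was 46.2%, against 15.5% of all genes and 25.8% of the genes over the median. At an unadjusted p under 0.05 the limma counts were 7 and 0. Eif1a, one of the genes of the scanning factor eIF1A, was at 7.37, 7.51, 7.56 and 7.59 on Lin+ arrays and at 8.41, 8.38, 8.29 and 8.33 on HSC-enriched arrays. The gap between the groups was wide against their spread (difference 0.84 ± 0.09 SE, 1.79-fold, adjusted p = 7.8e-05, limma). Its X-linked counterpart Eif1ax rose by 0.48.

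Eif2s2, the beta subunit of eIF2, was at 7.35, 7.48, 7.78 and 7.60 in Lin+ and at 8.13, 8.48, 8.23 and 8.24 in HSC-enriched cells, 1.65-fold higher. Eif2a, a separate factor that can deliver initiator tRNA without GTP and is not a subunit of eIF2, was at 8.98, 8.94, 8.80 and 9.10 against 9.62, 9.88, 9.66 and 9.53, 1.64-fold higher. The arrays of both genes were separated by group. Eif2d (0.57), another alternative carrier of initiator tRNA, and Eif5b (0.44), which joins the ribosomal subunits, rose as well. Without HSC-enriched replicates 3 and 4 neither passed, with differences as large as before (Eif2d 0.58, adjusted p = 0.056, and Eif5b 0.44, adjusted p = 0.058).

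Eif5, the GTPase activator of eIF2, did not pass and was at 9.79, 10.10, 9.89 and 9.93 on Lin+ and 9.72, 10.02, 10.00 and 10.13 on HSC-enriched arrays. These overlapped almost fully (difference 0.04, 95% interval -0.23 to 0.31). Eif6, which keeps the large subunit from joining too early, overlapped likewise (0.04). Eif1b (0.32, adjusted p = 0.082) passed without Lin+ replicate 2 (0.41, adjusted p = 0.031). Y-linked Eif2s3y stood at 2.26 to 2.77 over all 8 arrays, within the range of background. Background was gauged by 1091 olfactory receptor genes, whose values had a 95th percentile of 5.11.

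The exchange factor eIF2B, the target that phosphorylated eIF2 blocks, showed no change that passed. Of its 5 subunit genes 0 rose and 0 fell (limma), where 25.8% and 20.3% of the genes over the median did. At an unadjusted p under 0.05 the limma counts were 0 and 0. The differences ran from -0.21 (Eif2b4) to 0.28 (Eif2b3). Eif2b2, the gene of the beta subunit, was at 7.77, 8.04, 8.06 and 7.69 in Lin+ and at 7.98, 7.84, 7.46 and 7.51 in HSC-enriched cells. The arrays overlapped, and the 95% interval of the difference ran from -0.52 to 0.14.

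The cap-binding and helicase group held few increases. Of 13 genes 3 rose (23.1%, close to the 25.8% of genes over the median) and 0 fell (limma; 5 and 2 at an unadjusted p under 0.05), with a median of 0.11. Eif4b, which stimulates the helicase eIF4A, was at 9.14, 9.22, 9.07 and 9.24 on Lin+ and at 10.01, 10.06, 9.88 and 9.78 on HSC-enriched arrays. That is a 1.69-fold higher mean with no overlap (difference 0.76 ± 0.10 SE, adjusted p = 0.00027, limma). The helicase gene Eif4a2 was at 9.50, 9.79, 9.16 and 9.33 against 9.99, 10.15, 10.14 and 10.23, 1.61-fold higher and again without overlap.

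Eif4g1 was not among the genes analysed in this group. Eif4g2 did not pass and was at 10.72, 10.80, 10.50 and 10.74 in Lin+ and at 10.76, 10.89, 10.75 and 10.79 in HSC-enriched cells. The overlap was broad (difference 0.11, 95% interval -0.12 to 0.33). Eif4e, the cap-binding protein itself, rose by 0.36 (adjusted p = 0.013), but its values of 4.29 to 4.44 on Lin+ and 4.63 to 4.78 on HSC-enriched arrays lay in the range of background, and it did not pass without HSC-enriched replicates 3 and 4 (0.34, adjusted p = 0.094). Eif4a1, the main helicase gene, was also measured at background, at 2.49 to 2.76 in Lin+ and 2.57 to 3.28 in HSC-enriched cells (0.44, adjusted p = 0.066). It passed once HSC-enriched replicate 1 was dropped (0.58, adjusted p = 0.0064).

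Of the cap-binding relatives, Eif4e3 (-0.36) and Eif4e1b (-0.41) had negative differences that did not pass (adjusted p = 0.13 and 0.085). Eif4e1b, at background level, passed once HSC-enriched replicate 4 (-0.52, adjusted p = 0.028) or both replicates 3 and 4 (-0.61, 0.027) were dropped. Eif4e2 (0.10), which represses the mRNAs it binds, Eif4g3 (-0.14) and Eif4enif1 (0.02), the nuclear transporter of eIF4E, did not pass.

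Among elongation factors 3 of 9 rose and 0 fell (limma), with a median of 0.41. The share that rose was 33.3%, against 15.5% of all genes and 25.8% of the genes over the median. At an unadjusted p under 0.05 the limma counts were 6 and 0. Without Lin+ replicate 2, 5 elongation factors rose. Eef1b2, part of the exchange factor that reloads eEF1A with GTP, was at 11.28, 11.54, 11.24 and 11.28 on Lin+ and at 11.96, 12.10, 11.98 and 11.90 on HSC-enriched arrays. All HSC-enriched arrays were higher (difference 0.65 ± 0.11 SE, 1.57-fold, adjusted p = 0.00092, limma). Eef2, the translocase, rose by 0.41 and Eif5a2, a relative of the hypusine-bearing factor Eif5a, by 0.43. Without HSC-enriched replicates 3 and 4 the difference of Eif5a2 was as large but did not pass (0.44, adjusted p = 0.057).

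Eif5a (0.27, adjusted p = 0.055) had separate arrays but did not pass. Eef1e1, a component of the multi-synthetase complex despite its name, was at 7.40, 8.10, 7.37 and 8.04 in Lin+ and at 8.32, 8.39, 7.97 and 8.35 in HSC-enriched cells. The Lin+ arrays fell into a low and a high pair of values, and the difference of 0.53 (adjusted p = 0.066) passed once Lin+ replicate 2 (0.65, adjusted p = 0.031), Lin+ replicate 4 (0.63, 0.043) or HSC-enriched replicate 3 (0.63, 0.048) was dropped. Eef1d, an exchange factor subunit (0.43, adjusted p = 0.096), passed without Lin+ replicate 2 (0.55, adjusted p = 0.043).

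The probe sets of Eef1a1 and Eef1g, whose transcripts are among the most abundant of most cells, gave background or scattered values. Eef1a1 was at 4.55, 4.07, 4.58 and 6.83 on Lin+ and at 4.71, 4.57, 4.53 and 4.60 on HSC-enriched arrays, background values apart from Lin+ replicate 4. Without that array the difference turned from -0.40 to 0.20, and neither passed. Eef1g ranged from 4.16 to 7.12 over the Lin+ arrays alone. Their 95% intervals, -1.49 to 0.68 and -1.30 to 1.03, were the widest of the 69 genes.

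Enzymes that modify elongation factors rose in 3 of 6 cases, with 0 lower (limma) and a median of 0.56. The share that rose was 50.0%, against 15.5% of all genes and 25.8% of the genes over the median. At an unadjusted p under 0.05 the limma counts were 3 and 0. Eef2k, the calcium-dependent kinase that inactivates eEF2 and so slows elongation, was at 6.94, 7.29, 7.28 and 7.31 on Lin+ and at 8.10, 7.92, 7.88 and 7.77 on HSC-enriched arrays. Every HSC-enriched array was higher (difference 0.71 ± 0.12 SE, 1.64-fold, adjusted p = 0.0012, limma). Eef2k and its substrate Eef2 were thus both higher.

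The methyltransferase gene Eef2kmt was at 6.47, 6.12, 6.60 and 5.75 against 7.14, 6.90, 7.18 and 7.03, 1.78-fold higher. Eef1akmt2, which methylates eEF1A, was at 5.98, 6.16, 5.73 and 6.32 against 7.02, 6.77, 6.92 and 6.54, 1.70-fold higher. Neither overlapped between the groups, although the Lin+ arrays of Eef2kmt spread over 0.85. Eef1akmt1 was at 6.49, 6.52, 6.74 and 6.79 in Lin+ and at 7.11, 6.68, 6.78 and 6.67 in HSC-enriched cells, which overlapped (0.17). Eef1aknmt (0.40) passed when HSC-enriched replicate 3 alone (0.55, adjusted p = 0.049) or with replicate 4 (0.66, 0.040) was dropped.

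Most of the few members that act in termination, recycling or poly(A) binding rose. Of 5 genes in this group, which includes the poly(A)-binding proteins, 4 rose and 0 fell (limma), with a median of 0.48. The share that rose was 80.0%, against 15.5% of all genes and 25.8% of the genes over the median. At an unadjusted p under 0.05 the limma counts were 4 and 0. Gspt1, the GTPase eRF3 that works with the release factor, was at 8.76, 8.44, 8.33 and 8.72 on Lin+ and at 9.73, 9.61, 9.38 and 9.06 on HSC-enriched arrays. The lowest HSC-enriched array was still above the highest Lin+ array (difference 0.88 ± 0.16 SE, 1.84-fold, adjusted p = 0.0022, limma).

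Abce1, which splits ribosomes after termination, was at 8.32, 8.26, 7.89 and 8.42 against 9.04, 8.91, 9.07 and 8.80, 1.66-fold higher and without overlap. Etf1, the release factor eRF1, rose by 0.48, a call lost when Lin+ replicate 3 (0.43, adjusted p = 0.053), HSC-enriched replicate 2 (0.42, 0.056) or both HSC-enriched replicates 3 and 4 (0.47, 0.096) were dropped. Pabpc1, the main cytoplasmic poly(A)-binding protein, rose by 0.41 from a mean of 12.10 ± 0.12 to 12.51 ± 0.10 (SD, n = 4, limma adjusted p = 0.012). Its call was lost without HSC-enriched replicates 3 and 4 (0.39, adjusted p = 0.082). Pabpc4 was at 8.85, 9.78, 9.46 and 10.26 in Lin+ and at 10.13, 9.97, 10.04 and 9.70 in HSC-enriched cells. The spread of the Lin+ arrays exceeded the difference of 0.37 (adjusted p = 0.35).

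Promoters of the members were compared for short motifs, since many members rose together; RefSeq promoters were listed for 51 of the 69. The E-box CACGTG, bound by Myc and related factors, was found in the 250 bases before the start of 11 of them (21.6%), against 6.86% of the 27025 genes with a listed promoter. The ETS motif CCGGAAGT was found in 5 (9.8% against 3.23%), the cAMP response element TGACGTCA in 1 (1.96% against 1.77%) and the core of the interferon-stimulated response element in 1 (1.96% against 3.46%). GATAA was found in 6 (11.8% against 25.5%) and CCAAT in 17 (33.3% against 37.5%). Both strands and all listed promoters of a gene were searched. The comparison genes were not matched to the members in expression level, and most members are well expressed.

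Of the 11 genes with an E-box 6 rose and 0 fell (limma), and of the 40 without one 18 rose and 2 fell. The median differences were 0.39 and 0.36; the difference between them was not tested. Eif4e, measured at background, and Eif5a2 hold more than 1 E-box, as does Eif5a, which did not pass, over its listed promoters. The E-boxes of the 6 genes that rose are shown in capitals with 12 bases on each side (GRCm38.p6, 5′ to 3′ on the gene's strand).
Eef2, chr10:81176576-81176605, plus strand, 43 bases before the start: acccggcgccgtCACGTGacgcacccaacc
Eef2k, chr7:120842788-120842817, plus strand, 31 bases before the start: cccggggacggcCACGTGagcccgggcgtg
Eif3f, chr7:108934335-108934364, plus strand, 68 bases before the start: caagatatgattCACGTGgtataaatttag
Eif3k, chr7:28981915-28981944, minus strand, 44 bases before the start: ctggaaggaaatCACGTGgtagacaaaaaa
Eif4e, chr3:138527028-138527057, plus strand, 228 bases before the start: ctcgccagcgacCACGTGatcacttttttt
Eif4e, chr3:138527192-138527221, plus strand, 64 bases before the start: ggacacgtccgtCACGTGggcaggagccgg
Eif5a2, chr3:28781123-28781152, plus strand, 142 bases before the start: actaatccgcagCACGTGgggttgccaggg
Eif5a2, chr3:28781148-28781177, plus strand, 117 bases before the start: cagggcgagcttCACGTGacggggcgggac

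Genes of the surrounding pathways were counted in 8 lists, for which the same shares of all genes (15.5% higher, 12.4% lower) and of the genes over the median (25.8% and 20.3%) are the background. Of 23 genes of mTORC1 and cap-binding control 4 rose, which is 17.4%, and 5 fell, which is 21.7%. Both shares are near the background, and the median was 0.12 against 0.02 for all genes. Deptor, an mTOR inhibitor, and Pdcd4, which inhibits eIF4A, rose 2.39-fold and 1.67-fold. Cyfip2, a partner of the translational repressor FMRP, and Mlst8, an mTOR complex subunit, fell 1.96-fold and 1.74-fold. Rheb, the activator of mTORC1, did not pass (0.11). Without HSC-enriched replicates 3 and 4, 3 genes of this list fell.

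Among 24 genes of the response to phosphorylated eIF2, 8 rose (33.3%) and 4 fell (16.7%), with a median of 0.10. The share that fell lies between the 12.4% of all genes and the 20.3% of the genes over the median. Impact, which restrains GCN2 by competing for its activator, rose 3.64-fold from 6.87 ± 0.54 to 8.74 ± 0.32 (SD, n = 4), and the lipoprotein receptor gene Vldlr rose 2.70-fold from a Lin+ mean in the range of background. Slc7a11, the cystine transporter, and Mthfd2, a mitochondrial folate enzyme, fell 5.88-fold and 2.29-fold. Dnajc3, an inhibitor of PERK and PKR, did not pass (0.08). Chosen after their values were seen, Atf4, the central transcription factor of the response, rose by 0.38 (adjusted p = 0.047, limma) and Ppp1r15a, which recruits the eIF2 phosphatase, rose 2.47-fold (adjusted p = 0.0011). Of other genes in this list, also chosen in this way, Psat1 (0.61), Shmt2 (0.79) and Slc3a2 (1.0) rose and Sesn2 (-0.46) fell. Asns (-0.20), Ddit3 (-0.04), Atf5 (-0.03) and Chac1 (-0.68) did not pass. Thus Eif2ak4 and its inhibitor Impact were both higher.

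Of 20 other genes of termination, recycling and ribosome rescue 7 rose and 0 fell (limma; 7 and 1 at an unadjusted p under 0.05), with a median of 0.23. Gspt2, the close relative of Gspt1, rose 3.45-fold, from 5.03 ± 0.31 in Lin+, near background, to 6.82 ± 0.34 in HSC-enriched cells (SD, n = 4). Usp10, a deubiquitinase that acts on stalled ribosomes, rose 1.78-fold, and Denr, a recycling factor, did not pass (0.35). Without HSC-enriched replicate 3 the count was 4.

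Of 26 partners of poly(A)-binding protein and deadenylase genes 10 rose and 5 fell (19.2%, near the 20.3% of genes over the median), with a median of 0.04. The deadenylase subunits Cnot7 and Cnot9 rose 1.59-fold and 1.57-fold, the antiproliferative cofactors Btg1 and Btg2 fell 2.80-fold and 1.56-fold, and the scaffold gene Cnot1 did not pass (0.10). The count of higher genes was 6 when replicate 1 of either group was dropped, and 5 when HSC-enriched replicate 2 was. The count of lower genes was 3 without any 1 of Lin+ replicates 2, 3 and 4 or of HSC-enriched replicates 3 and 4.

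Enzymes that modify eEF2 and eIF5A at their special residues, diphthamide and hypusine, rose in 4 of 9 cases and fell in 0 (limma; 4 and 0 at an unadjusted p under 0.05; median 0.24). The 4 are all diphthamide genes, led by Dph6 (2.17-fold) and Dph5 (1.91-fold). Dph3 did not pass (0.15). Of 22 genes of cytosolic aminoacyl-tRNA synthetases, which charge tRNAs, 8 rose and 0 fell (limma; 11 and 0 at an unadjusted p under 0.05; median 0.29). Eprs and Kars rose 1.96-fold and 1.67-fold, and Nars did not pass (0.18).

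Mitochondrial translation factors rose in 5 of 13 cases and fell in 0 (limma; 7 and 1 at an unadjusted p under 0.05; median 0.31). Mrrf, the ribosome recycling factor of mitochondria, and Guf1 rose 2.37-fold and 1.97-fold, while the elongation factor gene Tufm (0.37, adjusted p = 0.091) passed without Lin+ replicate 1 (0.46, adjusted p = 0.049). Of 22 RNA-binding genes of selective initiation 8 rose and 1 fell (median 0.16). The stress granule gene G3bp1 and the cold-inducible gene Cirbp rose 1.57-fold and 1.56-fold, Ptbp3 fell 1.48-fold and Pcbp2 did not pass (-0.01). G3bp1 lost its call when any 1 of Lin+ replicates 1 (0.53, adjusted p = 0.061) and 2 (0.58, 0.071) and HSC-enriched replicates 1 (0.60, 0.066) and 2 (0.62, 0.065) was dropped.

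**Figure D4:**
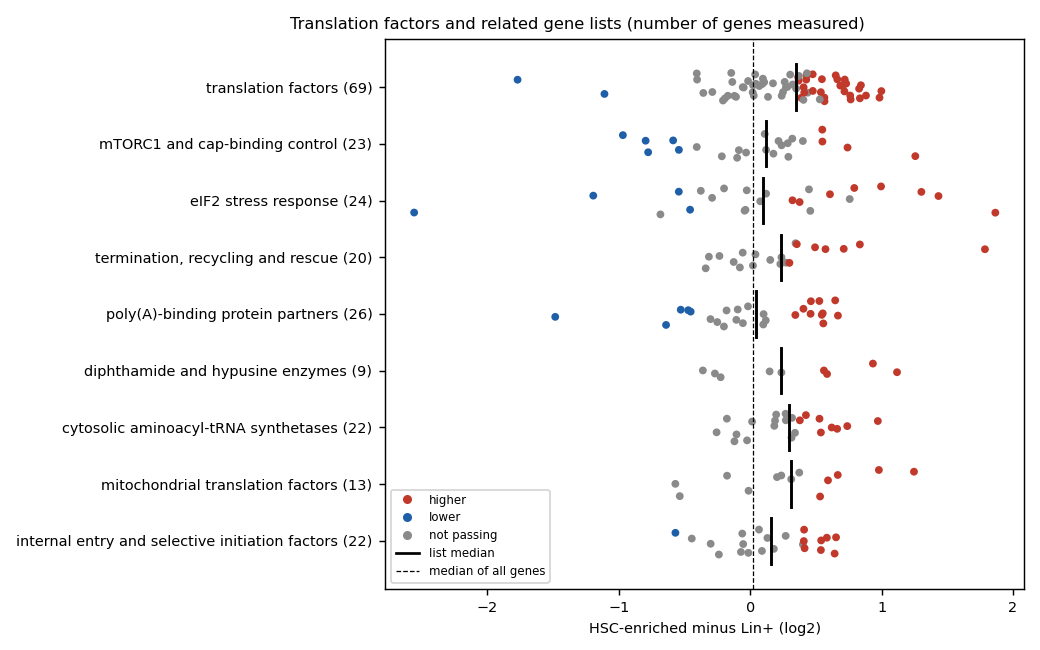
Difference between HSC-enriched and Lin+ means (log2) for each gene of the translation factors and of 8 related lists; each dot is a gene, coloured by its call at an adjusted p under 0.05, thick lines are list medians and the dashed line is the median of all genes. The median of the translation factors (0.35) is to the right of the medians of the 8 lists (0.04 to 0.31).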

How the data were processed

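The authors deposited log2 values for 24973 probe sets on 8 arrays. Per the submitters' processing notes the tools were RMA and Partek, with no version, and the log2 scale was read from the values (1.72 to 13.13 for named genes). Per the labels' protocols, total RNA was amplified with the Ovation Pico system and hybridised to MouseGene ST arrays of 2 versions, without stating which array each sample used. Genome build and probe set definition: not given in the sources used here.

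Each row carries 1 Entrez gene ID. Symbols were given for 24015 rows, updated by ID through RefSeq (GRCm38.p6) for 23922, and the brightest row was kept for a repeated symbol, giving 24011 genes. No detection calls come with the table. Differences are HSC-enriched minus Lin+, fitted with limma 3.58.1 (R 4.3.3, lmFit and eBayes, no covariate) with Benjamini-Hochberg adjustment across the 24011 genes and a threshold of 0.05 on the adjusted p. The number of arrays limits the precision. Signals of different probe sets were ordered to keep 1 row for a repeated symbol and to pick which gene not passing to describe. They were also set against the overall median and against the olfactory receptor genes.

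Values on every array were given for members passing with at least 1.5-fold, for the restraining genes and for the extremes of each role. In each related list the 2 genes that rose most and the 2 that fell most, where so many passed, and the brightest gene not passing were named, apart from predicted loci and pseudogenes. Members and lists were chosen with earlier results of these data known, and the promoter motifs after the differences were seen. On simulated data (24011 genes) the fit recovered 20.0% of 100 genes changed 1.5-fold and 75.0% of 100 genes changed 2-fold. In the measured data 6685 genes passed, which makes the Benjamini-Hochberg cut-off less strict there than in the simulation. How often the fit missed changes of these sizes in the measured data was thus not estimated. Plots used matplotlib 3.10.9 under Python 3.11.15.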

Additional observations from a re-analysis of the deposited data

Results flagged for a closer look

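Within 1 group of 4 arrays, the highest or lowest array stood far from the other 3 for 8 of the 138 combinations of gene and group, by Dixon's test, and chance flags about 1 in 20. Among HSC-enriched arrays, Eef1a2 was at 5.65 on replicate 2 against 5.97 to 5.99 on the others, and Eif1ax at 10.80 on replicate 2 against 10.56 to 10.57. Eef1e1 was at 7.97 on replicate 3 against 8.32 to 8.39, and Eif6 at 7.56 on replicate 4 against 7.91 to 7.96. Among Lin+ arrays, Eef2k was at 6.94 on replicate 1 against 7.28 to 7.31, and Eif4g3 at 8.62 on replicate 1 against 8.38 to 8.42. Eef1b2 was at 11.54 on replicate 2 against 11.24 to 11.28, and Eef1akmt3 at 4.74 on replicate 4 against 4.44 to 4.47. The calls of Eef1b2, Eef2k and Eif1ax held in all 15 alternatives.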

How the results depend on the processing

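Of the 29 genes that rose, 20 kept the call in each of the 15 alternatives that held them and 9 lost it in at least 1. The count ranged from 24 without HSC-enriched replicates 3 and 4 to 35 with quantile normalization again, and from 26 to 33 when single arrays were left out. Genes lower numbered 2 to 3, and Eif2ak3 and Eif2ak1 fell in every alternative. The median over all genes was 0.01 to 0.08 in these fits, against 0.30 to 0.41 for the members. With the replicate number as a block, 26 genes rose, 24 of them among the 29, and Eif2ak2 (adjusted p = 0.051), Eif3k (0.051), Eif4e (0.055), Eif5a2 (0.052) and Pabpc1 (0.051) lost their calls with the same differences. Deviations of same-numbered arrays correlated at -0.15, 0.06, 0.03 and -0.10. The labels do not state that the numbers pair the samples, and with 4 arrays a group these correlations cannot decide it. Under the block 1 restraining gene and 5 genes of selective initiation were counted as higher, and 3 genes of the poly(A) list as lower. Elongation factors higher numbered 5 with quantile normalization or the filter at the median, and 3 to 5 with an array left out. Without HSC-enriched replicates 3 and 4 the counts higher were 2 for termination, recycling and poly(A)-binding, 4 for the rescue list, 2 for diphthamide and hypusine and 4 for selective initiation. The counts lower were then 1 for the cap-binding group, 3 for mTORC1 control and 2 for the poly(A) list. Mitochondrial factors lower numbered 1, and selective initiation genes lower 2, with quantile normalization, the filter or array weights. Centring gave 1 mitochondrial factor lower. With single arrays left out, the rescue list had 4 to 6 higher and 0 to 1 lower, the poly(A) list 5 to 10 and 3 to 4, and diphthamide and hypusine 3 to 4 and 0 to 1. The cap-binding group and the mitochondrial factors then had 0 to 1 lower, and selective initiation 1 to 2. Some alternatives hold fewer arrays or genes, and the cause of these changes was not tested.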
